A study of Mus musculus with 9 samples.

Results

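Myocardin (Myocd) and 7 other transcriptional regulators that promote or oppose smooth muscle fate were followed in cultured gut mesenchyme treated with hedgehog ligands. The genes were Myocd, Srf, Gata6, Mef2a, Mef2c, Mef2d, Klf4 and Klf5, taken as every probe set (a group of array probes for 1 transcript) to which the platform annotation gives that single symbol. This gave 26 of 45101 probe sets, and 8 of the 18193 genes that were measured by their brightest probe set. The tissue was small intestinal mesenchyme of C57Bl/6J mouse embryos at E18.5, freed of epithelium and grown on collagen matrix in serum-containing medium for 48 h. It was then exposed for 24 h to Sonic hedgehog (Shh, 3 arrays), Indian hedgehog (Ihh, 3 arrays) or Vehicle (3 arrays), to find genes of the mesenchyme that respond to hedgehog signalling. The 3 groups shared strain, age and culture and differed in the ligand. Neither the dose of the ligands nor what the Vehicle contained is given in the sources used here. Each treatment had 6 wells, which were combined at random into the 3 samples, so p-values measure the spread between pools of wells.

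Serum response factor (SRF) binds the CArG box, a short AT-rich element in front of contractile, cytoskeletal and immediate early genes. Myocardin has no DNA contact of its own: it docks on SRF and turns it towards the contractile genes of smooth and cardiac muscle, while the ternary complex factors (Elk1, Elk3, Elk4) compete for the same surface and turn SRF towards the immediate early genes. MEF2 factors bind their own AT-rich site and work with the myocardin family, GATA6 favours a differentiated state of smooth muscle, and KLF4 and KLF5 are zinc finger factors linked to the proliferative, less differentiated state. In the gut, the epithelium secretes Shh and Ihh and the underlying mesenchyme, which gives rise to smooth muscle, receives them through Ptch1.

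Expression values are on the log2 scale throughout. The receptor and direct pathway target Ptch1 stood at 10.41, 10.88 and 10.35 on the Shh arrays and at 10.57, 10.49 and 10.98 on the Ihh arrays, against 9.25, 9.11 and 9.06 on the Vehicle arrays. It was higher by 1.48 ± 0.14 (SE, 6 treated and 3 Vehicle arrays) (adjusted p = 0.000622, limma), and it served as the check of ligand activity. The array medians lay between 5.87 and 5.92, and pairs of arrays correlated across probe sets with Pearson's r between 0.991 and 0.998. Low values are compressed towards background in this kind of data, so differences of genes near or below the medians may be understated. All 9 fibroblast and mesenchyme markers were above the medians on all 9 arrays, as were all 10 endothelial and all 11 macrophage markers, and 12 of 14 cardiac and skeletal muscle markers were below them on all 9. The sex-linked transcripts showed that the pools differed in the sex of their embryos: Eif2s3y, from the Y chromosome, was at 3.24 and 3.17 on Shh 1 and Shh 2 and between 6.24 and 8.98 on the other 7 arrays, and Xist was at 6.43 on Shh 3, 6.34 on Vehicle 2 and 6.48 on Vehicle 3 and between 10.04 and 11.31 on the other 6. In bulk samples of this kind, more cells that express a gene and more RNA per cell cannot be told apart.

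Of the 8 regulators Myocd alone passed the test for both ligands against Vehicle, upwards, beside 1.51% of all genes tested in either direction and 0.434% upwards. None of the 8 fell, where 1.07% of all genes did. The treated and Vehicle arrays did not overlap for Myocd only among the 8, where 6.47% of all genes were so separated. The median difference over the 8 genes was -0.01, and over all genes tested it was 0.00.

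**Figure D1:**
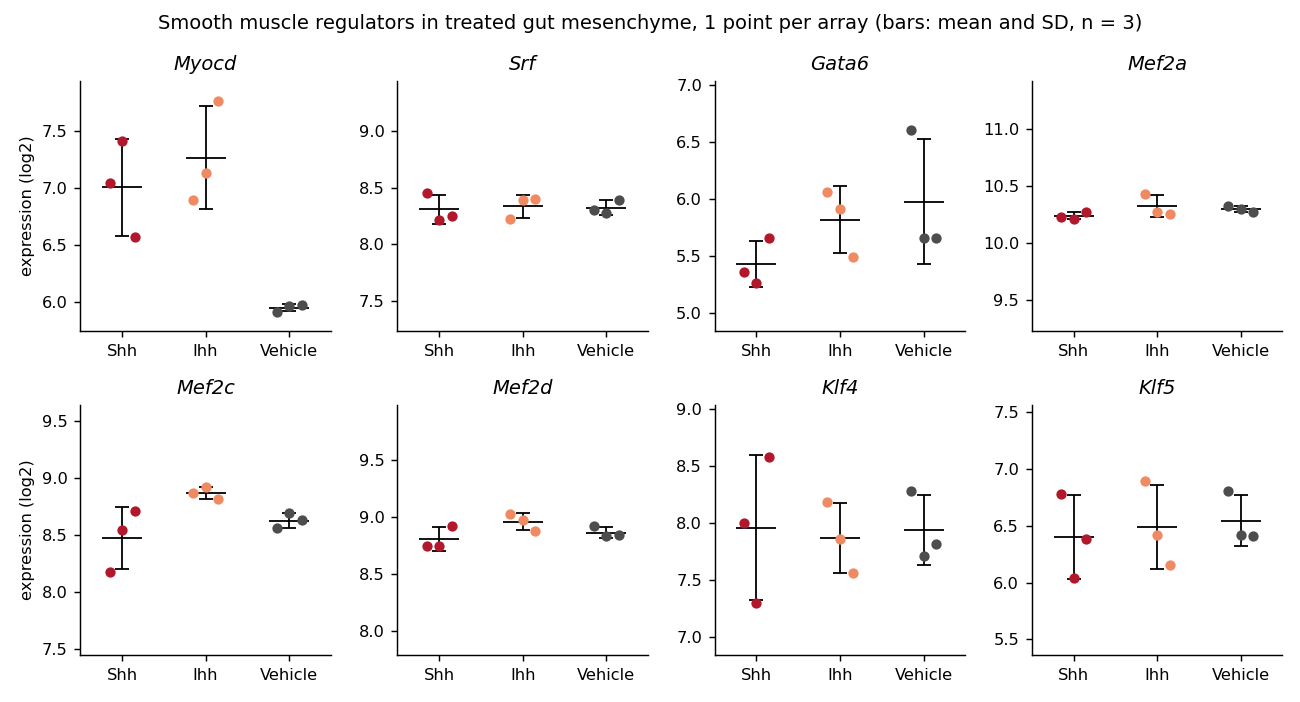
Expression (log2, y axis, the same span of units in each panel) of the 8 regulators by treatment (x axis), each gene by its brightest probe set, with 1 point per array and bars for the mean and SD of 3 arrays. Every Shh and Ihh point of Myocd is above the Vehicle points, which lie between 5.91 and 5.97, and in the other 7 genes the treated and Vehicle points overlap.

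Myocd is encoded on chromosome 11. Its brighter probe set, 1425978_at, read 7.04, 7.42 and 6.56 on the Shh arrays and 6.89, 7.13 and 7.77 on the Ihh arrays, against 5.91, 5.96 and 5.97 on the Vehicle arrays. The lowest treated value, on Shh 3, was above the highest Vehicle value. The Vehicle arrays were nearly level (SD 0.03) and just above the medians of those arrays, while the treated arrays were widely spread, with an SD of 0.43 with Shh and 0.45 with Ihh. The difference for both ligands was 1.19 ± 0.20 (SE; 95% confidence interval 0.74 to 1.64), or 2.28-fold, with an adjusted p of 0.0224 from limma, and it was the fourth largest increase among all 18193 genes. The call ended when Shh 1 (adjusted p = 0.0508), Vehicle 1 (0.104) or Vehicle 2 (0.0975) was left out. With those arrays left out the difference itself was 1.18, 1.17 and 1.20.

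By ligand, Myocd was 1.32 ± 0.23 higher with Ihh than with Vehicle (2.5-fold, adjusted p = 0.0410, limma), beside 0.649% of all genes called in that comparison. With the replicate number as a block this call was lost (limma adjusted p = 0.0781). Across genes, the deviations of same-numbered Ihh and Vehicle arrays from their group means correlated positively in all 3 pairs. Myocd itself did not follow this in pair 2. There it was below the group mean on Ihh 2 (7.13 against 7.26) and above it on Vehicle 2 (5.958 against 5.946). With Shh the difference was 1.06 ± 0.23 (2.09-fold) and its adjusted p was 0.0561, so it missed the threshold, which 1.73% of all genes passed. None of the other 7 regulators passed in either comparison. The direct difference, Shh minus Ihh, was -0.26 ± 0.23, with a confidence interval from -0.78 to 0.26 and an adjusted p of 0.628. The ligands were therefore not told apart for Myocd, and the interval also admits a difference of some size in either direction. Both single-ligand calls depended on the setting: that for Ihh was lost in 12 of 19 alternatives and that for Shh was gained in 6 of 19.

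The second Myocd probe set, 1425808_a_at, lay below the array medians on all 9 arrays. It read 4.84, 5.33 and 4.90 with Shh and 4.85, 4.98 and 5.31 with Ihh, against 4.41, 4.57 and 4.63 with Vehicle. The groups did not overlap here either, and the highest Shh array (Shh 2) and the highest Ihh array (Ihh 3) were the same as with the first probe set. The lowest Shh array was not the same: it was Shh 1 here and Shh 3 with the first probe set. Its difference of 0.50 ± 0.12 did not pass when every probe set was tested (adjusted p = 0.114), whereas 1425978_at did in that fit (adjusted p = 0.0279). The second probe set is dim, so its smaller difference is not a measure of a smaller change.

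Several sample traits were set beside Myocd. For Gapdh the probe set near the 3' end minus the one near the 5' end, a measure of RNA integrity, was -0.19 to -0.15 on 5 treated arrays and -0.04 on Ihh 1, against -0.08 to 0.03 on the Vehicle arrays. The same measure for beta-actin overlapped, at 0.12 to 0.18 on the treated arrays against 0.15 to 0.28 on the Vehicle arrays. Myocd was at 6.89 on Ihh 1. On Vehicle 1, which carried Xist at 10.83, Myocd was at 5.91, and on Vehicle 2 and Vehicle 3, with Xist at 6.34 and 6.48, it was at 5.96 and 5.97. With Shh, Myocd was at 7.04 and 7.42 on the arrays with Xist at 11.31 and 11.24. It was at 6.56, the lowest treated value, on Shh 3, the only treated array with low Xist (6.43). At the second Myocd probe set Shh 3 was not the lowest, at 4.90 against 4.84 on Shh 1. On the Ihh arrays, with Xist from 10.04 to 10.66, Myocd ran from 6.89 to 7.77. The part of RNA integrity and of the sex of the embryos in the Myocd values was not tested. Myocardin is also made in heart muscle. The mean of the 14 cardiac and skeletal muscle markers was 4.81 to 4.85 with Shh and 4.65 to 4.74 with Ihh, against 4.62 to 4.80 with Vehicle, and 0 of 14 passed the test. Above the medians on all 9 arrays was Actc1, cardiac actin, at 6.61 to 7.24 on the treated arrays against 6.57 to 6.90 on the Vehicle arrays. Nkx2-5, a homeobox factor of the heart, was above them on 7 of 9, at 5.81 to 6.16 on the treated arrays against 5.79 to 6.21 on the Vehicle arrays. The part of heart or skeletal muscle cells in the Myocd values was not tested.

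**Figure D2:**
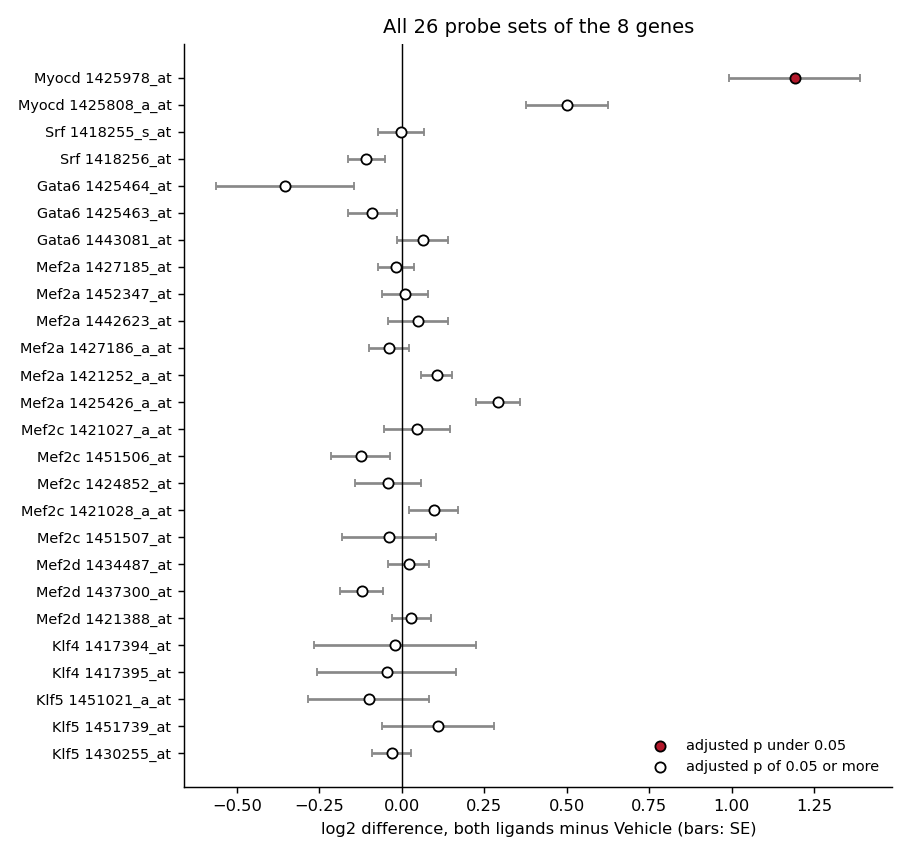
Difference in log2 expression, both ligands minus Vehicle (x axis, points, with bars for the standard error of the limma fit), for all 26 probe sets of the 8 regulators (y axis). The 2 Myocd probe sets lie farthest to the right at 1.19 and 0.50, and only the first is filled as called, against 24 unfilled probe sets of the other 7 genes between -0.35 and 0.29.

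When all 26 probe sets were tested singly, 1 was called for both ligands against Vehicle, beside 0.804% of all probe sets, and 12 lay above and 14 below 0. Treated and Vehicle arrays did not overlap in 5 of the 26, against 5.32% of all probe sets. These 5 were both probe sets of Myocd, 2 of Mef2a and 1 of Mef2d. No probe set of the 26 was called with Shh (0.946% of all), with Ihh (0.284%) or between the ligands (0.00444%), although at an unadjusted p under 0.05 Shh had 5 above and 2 below Vehicle (8.71% and 8.55% of all probe sets), and Ihh 4 above and 1 below (4.91% and 4.08%). Shh minus Ihh had 1 above 0 and 5 below, all 5 of Mef2c (6.61% and 7% of all probe sets).

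Srf, the DNA-binding partner of myocardin, was not called in any comparison. Its brighter probe set (1418255_s_at, chromosome 17) read 8.46, 8.22 and 8.25 with Shh and 8.22, 8.39 and 8.40 with Ihh, against 8.30, 8.28 and 8.39 with Vehicle, so the groups overlapped in full. The difference was -0.00 ± 0.07 (adjusted p = 0.993, limma), and its confidence interval ran from -0.16 to 0.15. The second probe set, 1418256_at, gave -0.11 ± 0.06 (adjusted p = 0.480), with 7.43 to 7.62 on the Shh arrays and 7.39 to 7.48 on the Ihh arrays, against 7.53 to 7.63 on the Vehicle arrays. There all Ihh arrays lay below all Vehicle arrays, as in 6.22% of all probe sets, by -0.15 ± 0.07 (unadjusted p = 0.0476, limma adjusted p = 0.549).

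The start region of Srf held the element that its own protein binds. RefSeq windows of 300 bases (250 before and 50 after the start, GRCm38.p6) were at hand for 5 of the 8 genes, Srf, Mef2a, Mef2c, Mef2d and Klf4, with 7 windows in all. Searched on both strands for the consensus CArG box, the window of Srf held 2 boxes, which begin 82 and 62 bases before the start, and the other 6 windows held none. Of all 32851 windows 535 (1.63%) held a box. The Srf window (chr17:46556113-46556412, minus strand) is shown because both boxes lie side by side, in capitals:
Srf: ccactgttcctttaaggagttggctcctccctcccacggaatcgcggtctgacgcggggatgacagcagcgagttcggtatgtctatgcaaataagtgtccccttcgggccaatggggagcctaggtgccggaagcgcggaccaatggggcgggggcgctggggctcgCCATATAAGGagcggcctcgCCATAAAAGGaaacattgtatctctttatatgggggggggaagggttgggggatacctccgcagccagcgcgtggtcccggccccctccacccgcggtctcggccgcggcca

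The GLI site GACCACCCA, the letters bound by the transcription factors of the hedgehog pathway, was in none of the 7 windows and in 0.253% of all windows. The consensus MEF2 site was in 1 of the 7, that of Mef2a, against 0.557% of all windows. The GC box GGGCGG, to which factors of the KLF and SP families bind, was in 4 of the 7, against 35.7% of all windows. These matches describe letters in short windows and say nothing of binding.

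The 3 MEF2 genes differed in how they sat around Vehicle, and none passed a test. Mef2a (1427185_at, chromosome 7) was the steadiest: 10.22, 10.21 and 10.27 with Shh and 10.43, 10.27 and 10.25 with Ihh, against 10.32, 10.30 and 10.27 with Vehicle, a difference of -0.02 ± 0.05 (adjusted p = 0.932, limma). Of its other 5 probe sets, 3 also overlapped between the groups. The remaining pair did not. Probe set 1425426_a_at, below the medians on all 9 arrays, read 5.51, 5.33 and 5.49 with Shh and 5.28, 5.44 and 5.28 with Ihh, against 4.98, 5.16 and 5.14 with Vehicle (0.29 ± 0.07, adjusted p = 0.0912). Probe set 1421252_a_at read 7.20 to 7.29 with Shh and 7.13 to 7.21 with Ihh, against 7.08 to 7.12 with Vehicle (0.11 ± 0.05, adjusted p = 0.402). The probe sets of Mef2a thus disagreed, with 4 above and 2 below 0, and the brightest showed no difference beyond the spread.

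Mef2c, a MEF2 factor of muscle and of endothelium, was the member in which the ligands lay farthest apart relative to their error. Its brightest probe set (1421027_a_at, chromosome 13) read 8.17, 8.54 and 8.71 with Shh and 8.87, 8.92 and 8.82 with Ihh; the Vehicle arrays read 8.56, 8.69 and 8.63. Every Ihh array was above every Vehicle and every Shh array. Ihh arrays lay wholly above Vehicle in 5.67% of all genes, and Shh arrays wholly below Ihh in 7.93%. Shh minus Ihh was -0.40 ± 0.12 (confidence interval -0.65 to -0.14), with an unadjusted p of 0.00652 that became 0.301 after adjustment over all genes by limma, so it was not called. In that comparison 2 genes of 18193 (0.011%) were called at all, neither of them one of the 8. The ligands together gave 0.05 ± 0.10 against Vehicle (adjusted p = 0.903), as Shh lay at -0.15 ± 0.12 (adjusted p = 0.513) and Ihh at 0.24 ± 0.12 (adjusted p = 0.584).

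All 5 Mef2c probe sets showed the same order of the ligands. Shh minus Ihh ran from -0.57 to -0.30, each with an unadjusted p under 0.05, as in 7% of all probe sets in that direction. The adjusted p lay between 0.182 and 0.330 when every probe set was tested. In 3 of the 5 all Shh arrays were below all Ihh arrays, which held for 8.44% of all probe sets. All 5 were below 0 for Shh minus Vehicle and all 5 above 0 for Ihh minus Vehicle. The widest gap was at 1451506_at, which read 7.56, 7.84 and 7.57 with Shh and 8.40, 8.24 and 8.04 with Ihh; Vehicle gave 8.15, 8.06 and 7.99. There the Shh arrays were also below all Vehicle arrays (-0.41 ± 0.10, adjusted p = 0.0952), as in 8.98% of all probe sets. These probe sets read 1 gene on the same 9 arrays and are not independent of each other. Beside Mef2c, the mean of the 10 endothelial markers was 8.63 to 8.73 with Shh and 8.65 to 9.08 with Ihh, against 8.90 to 9.13 with Vehicle. For Shh minus Vehicle all 10 endothelial markers were below 0 (46.1% of all genes) and 1, Cdh5, fell (adjusted p = 0.0464), beside 1.24% of all genes. For Ihh minus Vehicle all 10 were also below 0 (54% of all genes) and 0 fell (0.456%), and the 5 Mef2c probe sets were above 0. For Shh minus Ihh 8 of the 10 markers were below 0 (44.2% of all genes), with a median of -0.21. Of the 10, 2 were lower there at an unadjusted limma p under 0.05 (5.97% of all genes), and 0 were called. The part of endothelial cells in the Mef2c values was not tested.

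**Figure D3:**
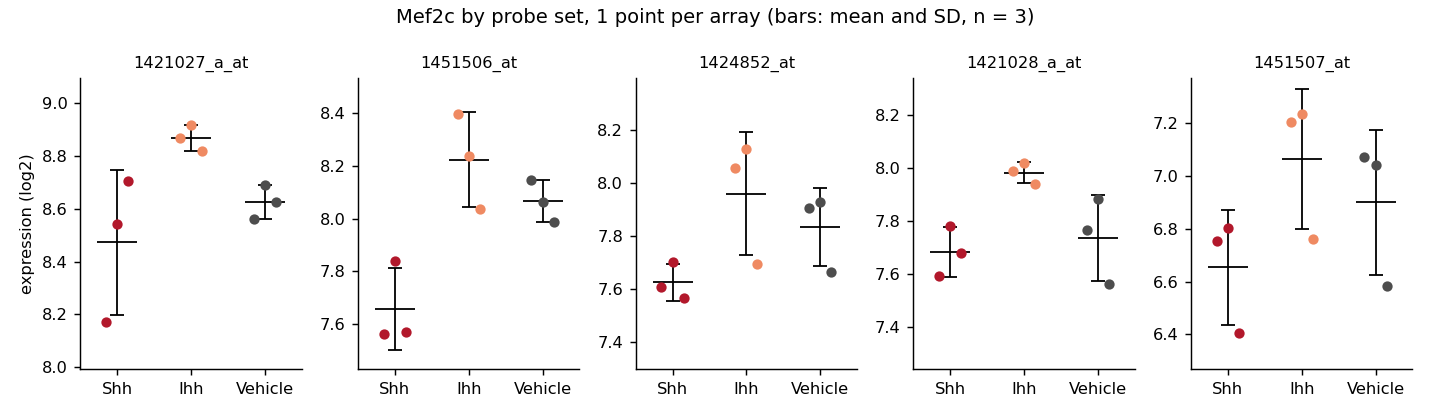
Expression (log2, y axis, the same span of units in each panel) of Mef2c in its 5 probe sets by treatment (x axis), with 1 point per array and bars for the mean and SD of 3 arrays. The Shh mean is the lowest and the Ihh mean the highest in each panel, and the Shh and Ihh points are apart in 3 of 5 (1421027_a_at, 1451506_at and 1421028_a_at).

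Mef2d (1434487_at, chromosome 3) ran from 8.74 to 8.92 with Shh and from 8.88 to 9.03 with Ihh, against 8.83 to 8.92 with Vehicle, a difference for both ligands of 0.02 ± 0.06 (adjusted p = 0.935, limma). Shh minus Ihh was -0.15 ± 0.07 at this probe set (adjusted p = 0.380) but 0.25 ± 0.07 at 1421388_at (adjusted p = 0.219), so the probe sets of Mef2d disagreed in sign. At 1421388_at all Shh arrays (7.64 to 7.81) were above and all Ihh arrays (7.41 to 7.54) below the Vehicle arrays (7.55 to 7.64), a pattern found in 0.371% of all probe sets. There the lowest Shh array (7.6432) and the highest Vehicle array (7.6411) were almost level. The third, 1437300_at, differed from Vehicle by -0.12 ± 0.07 for both ligands (adjusted p = 0.487), with no overlap: it read 7.70 to 7.93 with Shh and 7.75 to 7.93 with Ihh, against 7.95 to 7.98 with Vehicle.

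Gata6, on chromosome 18, was dim. Its brightest probe set, 1425464_at, read 5.36, 5.27 and 5.66 with Shh and 6.06, 5.91 and 5.49 with Ihh, against 6.61, 5.66 and 5.66 with Vehicle, and was below the array median on 6 of 9 arrays. Vehicle 1 stood above all other arrays. The difference was -0.35 ± 0.21 for both ligands (adjusted p = 0.523, limma) and -0.55 ± 0.25 for Shh (adjusted p = 0.265), and without Vehicle 1 the difference for both ligands was -0.04. The other 2 probe sets were below the medians on all 9 arrays and gave -0.09 and 0.06.

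Klf4 and Klf5 varied more within the treatments than between them. Klf4 (1417394_at, chromosome 4) read 8.0, 7.30 and 8.58 with Shh and 8.18, 7.86 and 7.56 with Ihh, against 8.29, 7.71 and 7.81 with Vehicle. The lowest and the highest of the 9 values were both Shh arrays. The difference was -0.02 ± 0.25 (confidence interval -0.58 to 0.54, adjusted p = 0.985, limma), an interval that leaves room for a sizeable change in either direction. Klf5 (1451021_a_at, chromosome 14) read 6.78, 6.04 and 6.38 with Shh and 6.89, 6.42 and 6.16 with Ihh, against 6.80, 6.42 and 6.41 with Vehicle, a difference of -0.10 ± 0.19 (adjusted p = 0.884). The other probe set of Klf4 gave -0.05 and the other probe sets of Klf5 gave 0.11 and -0.03.

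KLF4, KLF5 and GATA6 are also made by gut epithelium, which had been removed before culture, and epithelial transcripts were uneven over the arrays. The mean of 12 epithelial markers was 6.52, 5.60 and 7.35 with Shh and 6.86, 7.18 and 6.10 with Ihh, against 7.37, 6.49 and 5.64 with Vehicle, and 0 of 12 passed the test. Shh 2, the lowest array for Klf4, Klf5 and Gata6, was also the lowest for the epithelial mean. Shh 3 was the highest array for Klf4, and Vehicle 1 the highest for Gata6, and these were the highest 2 arrays of the epithelial mean. Other arrays did not follow that order: Klf5 was highest on Ihh 1, where the epithelial mean was 6.86, and Gata6 was at 5.66 both on Shh 3 and on Vehicle 3, where the epithelial mean was 7.35 and 5.64. The part of epithelial cells in these values was not tested.

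**Figure D4:**
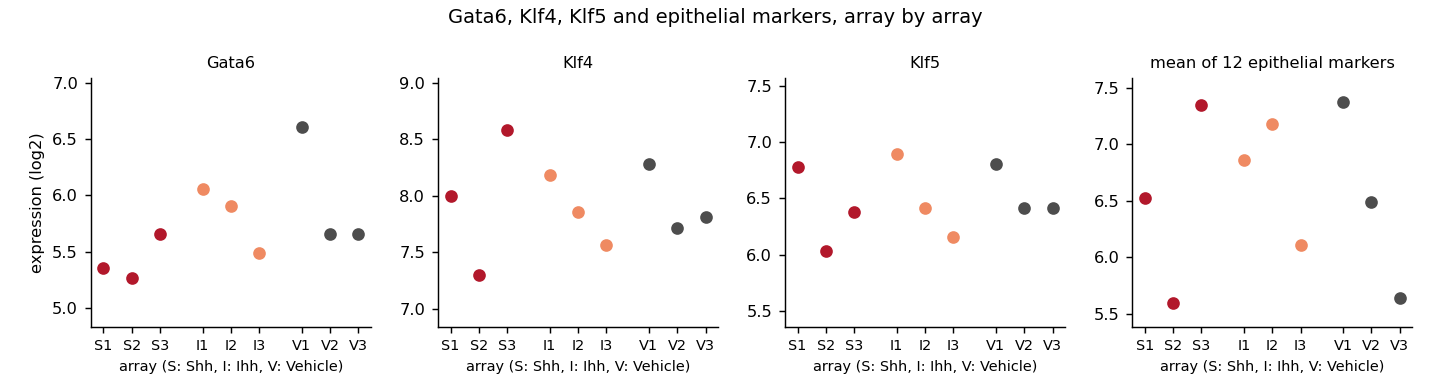
Expression (log2, y axis, the same span of units in each panel) of Gata6, Klf4 and Klf5 and the mean of 12 epithelial markers on each of the 9 arrays (x axis), coloured by treatment. Shh 2 is the lowest point of all 4 panels, and the treatments overlap in each.

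Genes around SRF and myocardin were followed in 3 lists: smooth muscle targets, immediate early targets, and SRF cofactors with further regulators. The first is the contractile and cytoskeletal programme of smooth muscle, which SRF and myocardin are known to drive. Of 29 measured genes 2 rose and 0 fell with both ligands, beside 0.434% and 1.07% of all genes. Above 0 lay 24 of the 29, beside 50.5% of all genes, and the median difference was 0.12, against 0.00 for all genes. Synpo2, an actin-binding protein of the Z-disc and of dense bodies, read 7.43, 7.31 and 6.98 with Shh and 7.05, 6.99 and 7.42 with Ihh, against 6.41, 6.41 and 6.17 with Vehicle. It rose by 0.87 ± 0.12 (adjusted p = 0.00676, limma) and was called with Shh (0.91, adjusted p = 0.0141) and with Ihh (0.83, adjusted p = 0.0309), the last of which the replicate block ended (adjusted p = 0.0687). With the mean of its probe sets in place of the brightest its difference was 0.40 (adjusted p = 0.0519). Itga8, the alpha 8 integrin subunit found on smooth muscle, rose by 0.47 ± 0.09 (adjusted p = 0.0443), with 8.36 to 8.78 on the treated arrays against 7.93 to 8.23 on the Vehicle arrays, and its call ended in 8 of the 9 fits that left out an array (adjusted p up to 0.198).

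The classical contractile genes did not pass. Acta2, smooth muscle actin, read 13.53, 13.45 and 13.34 with Shh and 13.07, 13.35 and 13.43 with Ihh, against 13.12, 13.24 and 13.27 with Vehicle (0.15 ± 0.08, adjusted p = 0.482). Myh11, the smooth muscle myosin heavy chain, differed by 0.27 ± 0.18 (adjusted p = 0.571), Tagln by 0.09 ± 0.13 (adjusted p = 0.848) and Cnn1 by 0.19 ± 0.23 (adjusted p = 0.800). In each of these 4 genes Ihh 1 was below every Vehicle array. Nearest to the threshold were Pdlim3, a PDZ and LIM protein of actin filaments, higher at 0.60 ± 0.15 (adjusted p = 0.0826), and Smtn, the smooth muscle protein smoothelin, lower at -0.36 ± 0.09 (adjusted p = 0.0791). The mean of the 29 genes was 9.54 to 9.86 with Shh and 9.40 to 9.77 with Ihh, against 9.40 to 9.54 with Vehicle, so the groups overlapped. By single ligand 2 of the 29 rose with Shh, Synpo2 and Itga8, beside 0.489% of all genes, and 1 with Ihh, Synpo2, beside 0.192%.

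In the second list, the immediate early targets of SRF, all calls were falls. Of 10 genes 0 rose and 3 fell, beside 0.434% and 1.07% of all genes, and the median was -0.10. Fos, a subunit of AP-1, read 9.71, 9.66 and 9.72 with Shh and 10.16, 10.04 and 9.85 with Ihh, against 10.39, 10.45 and 10.33 with Vehicle. It fell by 0.53 on the log2 scale (SE 0.07, adjusted p = 0.00406, limma) and its call held in all 9 fits that left out an array. Egr1, a zinc finger factor, was at -0.52 ± 0.09 (adjusted p = 0.0296) and Junb, another AP-1 subunit, at -0.43 ± 0.08 (adjusted p = 0.0363), both with treated and Vehicle arrays apart, and their calls ended in 6 and 5 of those 9 fits (adjusted p up to 0.137 and 0.161). Next in order of p were Ier2 at -0.30 ± 0.08 (adjusted p = 0.100) and Mcl1 at -0.09 ± 0.05 (adjusted p = 0.528). With Shh 4 fell, Fos, Egr1, Junb and Ier2 (-0.46, adjusted p = 0.0377), beside 1.24% of all genes. With Ihh 0 were called (0.649% of all genes in either direction), and 3 were lower at an unadjusted p under 0.05, beside 5.63% of all genes. Fos differed between the ligands by -0.32 (Shh minus Ihh, adjusted p = 0.285), so the difference between the ligands was not called. The mean of the 10 genes was 8.78 to 8.85 with Shh and 8.92 to 8.96 with Ihh, against 9.07 to 9.09 with Vehicle, with no overlap.

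The third list held other SRF cofactors and regulators of smooth muscle fate. Of 34 measured genes 1 rose and 1 fell, beside 0.434% and 1.07% of all genes, and the median was -0.04. Below 0 lay 23 of the 34 (49.5% of all genes). At an unadjusted limma p under 0.05, 6 were lower and 1 higher (8.41% and 5.25% of all genes). Tcf21, a basic helix-loop-helix factor of visceral mesenchyme, rose by 0.47 ± 0.08 (adjusted p = 0.0197, limma), with 11.13 to 11.44 on the treated arrays against 10.73 to 10.94 on the Vehicle arrays. Tbx18, a T-box factor of mural and ureteral mesenchyme, fell to 6.35 to 6.84 on the treated arrays, against 7.03 to 7.21 on the Vehicle arrays (-0.45 ± 0.09, adjusted p = 0.0416). The call of Tcf21 ended without Shh 2 (adjusted p = 0.0501), without Vehicle 1 (0.104) and with the mean of its probe sets (0.0616), and that of Tbx18 in 7 of the 9 fits that left out an array (up to 0.190). The relatives of myocardin did not pass the test. Mrtfa (also known as Mkl1) was at -0.35 ± 0.08 (adjusted p = 0.0706), and Mrtfb (Mkl2) differed by -0.03 ± 0.06 (adjusted p = 0.868). Tead1, the partner of the YAP coactivators, was at -0.26 ± 0.06 (adjusted p = 0.0877) and was called lower with Shh alone (-0.36, adjusted p = 0.0468). The ternary complex factors Elk1, Elk3 and Elk4 differed by -0.01, -0.15 and 0.02, with adjusted p of 0.962, 0.259 and 0.902. By single ligand 1 of the 34 rose with Shh, Tcf21 (0.54, limma adjusted p = 0.0211), beside 0.489% of all genes. With Shh 2 fell, Tbx18 (-0.54, adjusted p = 0.0361) and Tead1, beside 1.24%. With Ihh 0 were called, Tcf21 and Tbx18 included (adjusted p = 0.106 and 0.233), beside 0.649% of all genes in either direction.

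**Figure D5:**
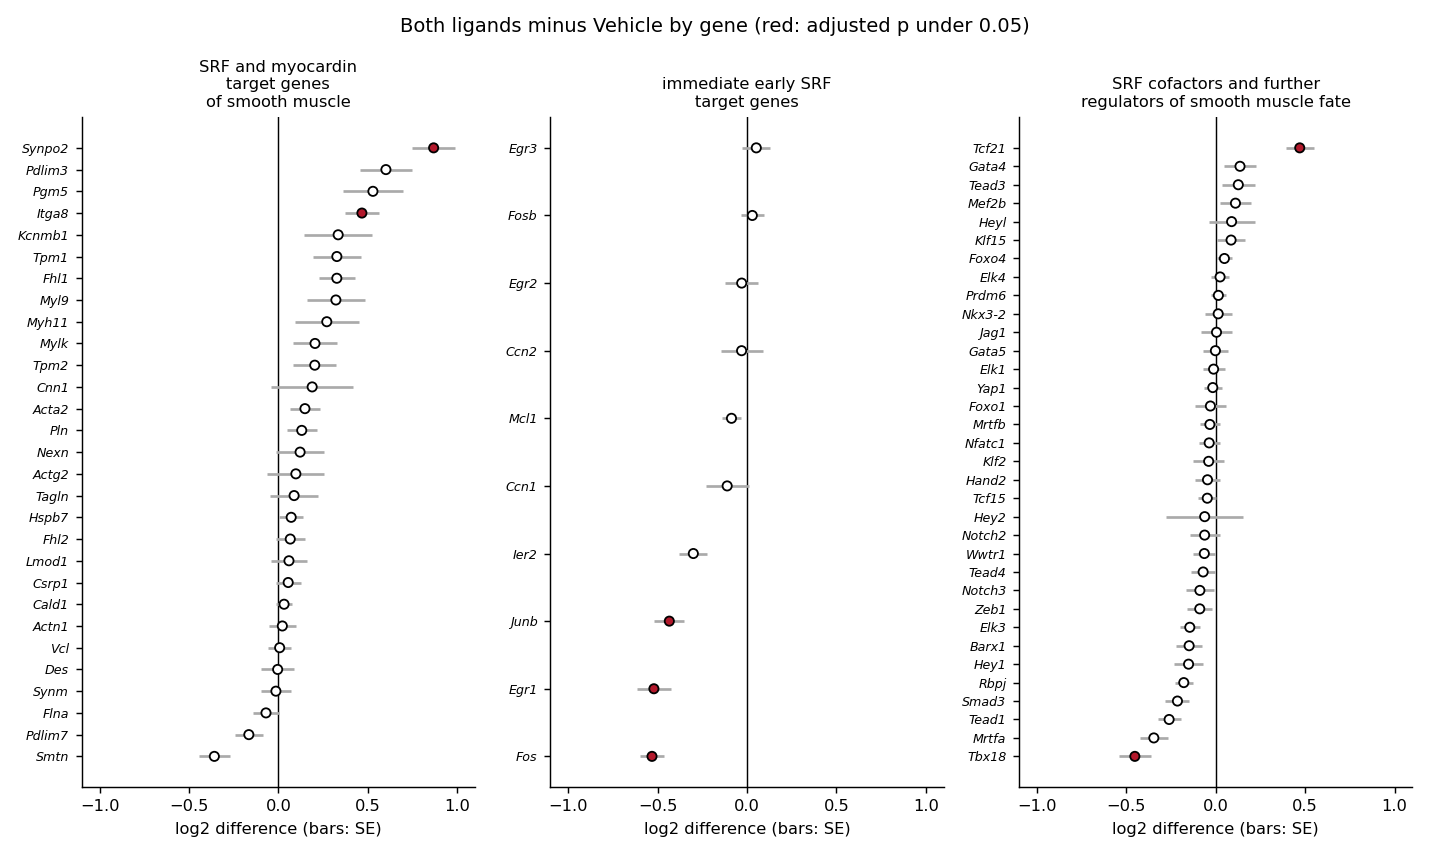
Difference in log2 expression, both ligands minus Vehicle (x axis, points, with bars for the standard error of the limma fit), for each measured gene (y axis) of the 3 lists. Filled points passed an adjusted p of 0.05: Synpo2 and Itga8 to the right among 29 targets, Junb, Egr1 and Fos to the left among 10 immediate early genes, and Tcf21 right and Tbx18 left among 34 cofactors and regulators.

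The start regions of the 2 kinds of targets were searched for the same CArG box as Srf. A box was present in 5 of 29 windows of the contractile and cytoskeletal list (17.2%, from 4 of 25 genes with a window). It was present in 4 of 10 windows of the immediate early list, from 1 of 6 genes with a window. These 4 were all of Egr2 and shared 2 distinct boxes. Genes with no window were not searched. Each distinct box is shown in capitals with 10 bases on either side, as an example of the element that SRF binds. The matched genes were chosen by sequence and not by their values.
Myl9 (chr2:156775293-156775322, plus strand): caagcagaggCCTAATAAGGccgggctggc
Fhl1 (chrX:56779571-56779600, plus strand): ccttggatcaCCTAAAATGGttaagaattt
Vcl (chr14:20929161-20929190, plus strand): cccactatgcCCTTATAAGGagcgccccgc
Fhl2 (chr1:43196838-43196867, minus strand): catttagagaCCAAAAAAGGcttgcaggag
Fhl2 (chr1:43163973-43164002, minus strand): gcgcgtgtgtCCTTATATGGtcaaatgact
Egr2 (chr10:67537787-67537816, plus strand): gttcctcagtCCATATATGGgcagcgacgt
Egr2 (chr10:67537484-67537513, plus strand): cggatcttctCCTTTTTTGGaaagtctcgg

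None of these 5 genes passed the test. Myl9, the regulatory light chain of smooth muscle myosin, differed by 0.32 ± 0.16 (adjusted p = 0.422, limma), Fhl1 by 0.33 ± 0.10 (adjusted p = 0.163), Vcl, which encodes vinculin, by 0.01 ± 0.07 (adjusted p = 0.981), Fhl2 by 0.07 ± 0.08 (adjusted p = 0.804) and Egr2 by -0.03 ± 0.09 (adjusted p = 0.936). Synpo2, Itga8, Fos and Junb have windows in the table with no match to the consensus, which says only that these letters are not within those bases.

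Genes whose level followed Myocd most closely from array to array were sought among the 3458 genes that varied by at least 0.5 over the 9 arrays. Highest were Cdh11, Cd83, Pknox2, Lrat and Ptch1, each with Pearson's r of 0.96 over 9 arrays. Lowest were Gch1 (-0.98), Tnxb (-0.97) and Arg2 (-0.96). All 9 arrays enter each r, and treated and Vehicle arrays were apart in all 8 genes, against 6.47% of all genes. The 8 were chosen by r with Myocd, whose own arrays are apart, so this separation follows largely from the choice. With the treatment means removed, r with Myocd was 0.88 for Cdh11, 0.83 for Cd83, 0.90 for Pknox2, 0.91 for Lrat and 0.86 for Ptch1. It was -0.92 for Gch1, -0.94 for Tnxb and -0.96 for Arg2. Myocd was widely spread within the treated groups, and the genes were chosen on these same 9 arrays. These values therefore also follow largely from the choice and are no separate support. Of the 5 highest, Ptch1 and Cd83 (0.71 ± 0.09, adjusted p = 0.00555, limma) passed the test for both ligands. Of the 3 lowest, Arg2 passed (-1.08 ± 0.225, adjusted p = 0.0496, limma). Gch1 and Tnxb did not (adjusted p = 0.0535 and 0.0508). Among the smooth muscle targets r ran from -0.79 for Smtn to 0.93 for Synpo2. It was 0.83 for Itga8, 0.67 for Myh11, 0.60 for Acta2, 0.51 for Cnn1, 0.38 for Tagln, 0.14 for Des and -0.47 for Pdlim7. Among the other members r ran from -0.52 for Gata6 to 0.15 for Srf. With the treatment means removed, the other members gave -0.87 for Mef2d, -0.86 for Klf4, -0.73 for Mef2a, -0.63 for Klf5, -0.58 for Gata6, -0.32 for Mef2c and 0.30 for Srf. Srf, Mef2a and Mef2d varied by 0.24, 0.22 and 0.29 over the arrays, less than that limit of 0.5. Among the Shh arrays Myocd was highest on Shh 2 and lowest on Shh 3, where the epithelial mean was lowest (5.60) and highest (7.35). Among the Ihh arrays it was highest on Ihh 3, with the lowest epithelial mean (6.10). It was lowest on Ihh 1, whereas Ihh 2 had the highest mean (7.18). The part of epithelial cells in these r was not tested. The r values describe 9 arrays that share treatments, medium and normalization.

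Markers of further cells were read on the same arrays, and their part in the results was not tested. Of 11 macrophage markers 2 rose (Laptm5 and Cx3cr1) and 2 fell (Adgre1 and Itgam) with both ligands, beside 0.434% and 1.07% of all genes, and the mean of the 11 was 9.59 to 9.80 on the treated arrays against 9.60 to 9.96 on the Vehicle arrays. None of the 10 endothelial markers passed for both ligands, although all 10 were below 0 (49.5% of all genes) and 5 were lower at an unadjusted p under 0.05 (8.41% of all genes). None of the 6 measured markers of enteric neurons and glia, the 2 of interstitial cells of Cajal, the 7 of mesothelium or the 9 of fibroblasts and mesenchyme passed.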

How the data were processed

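Biotin-labelled cRNA from 6 ug of total RNA of each pool was hybridised to 1 Affymetrix array per sample, 9 in all, per the labels. The deposited values are log2 expression per probe set. The submitters' processing notes name GCOS and RMA, without versions. RMA corrects background, equalises the distributions of the arrays and summarises probes, so a common shift of all transcripts is removed. The range of the values, 2.78 to 14.20, is that of a log2 scale. At 22788 probe sets (50.5%) at least 2 arrays shared a value exactly, so equal values such as those of Gata6 are not evidence of equal RNA.

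Names came from the platform annotation, which gives 34945 probe sets 1 gene symbol, 932 several and 9160 none. Each gene was represented by the brightest of its single-symbol probe sets, and no probe set's level was set against another's. The fit of limma 3.58.1 (lmFit and eBayes, R 4.3.3) used the 9 arrays and 3 group means (6 residual degrees of freedom, 3.88 prior). Tests were two-sided, with Benjamini-Hochberg adjustment over the 18193 genes of each comparison and a threshold of 0.05. A second fit tested each of the 45037 probe sets that are not controls. Rose, fell and called refer to this threshold, and ± marks the standard error of a difference. The Shh and Ihh comparisons share the Vehicle arrays. Deviations of same-numbered arrays from their group means correlated at 0.23 to 0.54 between Ihh and Vehicle in all 3 pairs, although the labels describe random pooling. These deviations correlated at -0.16 to 0.14 between Shh and Vehicle and at -0.30 to -0.08 between Shh and Ihh. The main fit took no account of the numbers, and a block for them was an alternative in every comparison. For Ihh against Vehicle only the block fit keeps such pairs, and in it neither Myocd (limma adjusted p = 0.0781) nor Synpo2 (0.0687) was called. The number of arrays limits the precision.

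The members, lists and tests were chosen with earlier results of these data known. Named were all 8 members, every called gene and the 2 next by p of the 3 target and cofactor lists, Acta2, Myh11, Tagln, Cnn1, Mrtfa, Mrtfb, Ptch1 and the genes most and least like Myocd. Elk1, Elk3, Elk4, Cdh5, Actc1, Nkx2-5, the 4 macrophage genes, Xist, Eif2s3y and the genes chosen by a CArG match fell outside this rule. Sequences are RefSeq windows of GRCm38.p6. The steps were tested on simulated data. Alternatives covered normalization, the choice of probe sets, a filter on dim genes (40th percentile), the variance model, array weights and leaving out each array.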

Additional observations from a re-analysis of the deposited data

Results flagged for a closer look

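Mef2d at probe set 1421388_at was singled out because every Shh array lay above and every Ihh array below all Vehicle arrays. It read 7.78, 7.64 and 7.81 with Shh and 7.54, 7.41 and 7.53 with Ihh, while the Vehicle arrays read 7.55, 7.58 and 7.64. The nearest arrays were almost level on both sides. Shh 2 was at 7.6432 against Vehicle 3 at 7.6411, and Ihh 1 at 7.5391 against Vehicle 1 at 7.547. Shh minus Ihh was 0.25 ± 0.07 (SE, 3 arrays each) with a limma adjusted p of 0.219, so the difference did not pass the test over all probe sets. The brightest Mef2d probe set, 1434487_at, gave -0.15 for the same comparison.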

How the results depend on the processing

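Myocd kept its direction in all 4 comparisons, over 18 alternative settings with both ligands and 19 in each of the others. With both ligands its call was kept in all but 3, the fits without Shh 1, Vehicle 1 or Vehicle 2, and leaving out arrays gave differences of 1.06 to 1.30 and 0 to 1 called members. With Ihh the count of called members was 0 with the replicate number as a block (Myocd at 1.32, adjusted p = 0.0781), with quantile normalization once more, the mean of probe sets, every probe set tested singly, the trended and robust variance and the compared groups only, and 0 to 1 when arrays were left out (Myocd at 1.07 to 1.504). With Shh it was 1 with the dim filter (Myocd adjusted p = 0.0447), array weights (0.0330) and the compared groups only (0.0461), and 0 to 1 when arrays were left out. Among the calls of named genes, the block also ended those of Synpo2 with Ihh, Laptm5 with both ligands (adjusted p = 0.0534) and with Shh (0.0578) and Arg2 with both (0.0679); 13 of 15 were kept with both ligands, 14 of 15 with Shh and 4 of 6 with Ihh. It added Smtn (0.0313) and Mrtfa (0.0443) with both, Smtn and Cx3cr1 with Shh and Cx3cr1 with Ihh, and took the count over all genes with Shh to 522, against 314 without it. Of the 9 arrays 6 correlated best with their own number in another group. Of the target list 1 gene was called with median centring (Itga8 adjusted p = 0.0520), the mean of probe sets and every probe set singly, and 1 to 3 when arrays were left out; of the immediate early list 1 to 3; of the cofactor list 1 with every probe set singly, 4 with the trended and robust variance, 4 with array weights and 0 to 2 when arrays were left out. The dim filter removes Gata6. Signs turned for members that were never called. Median centring gave -0.0029 for Srf with Ihh. Quantile normalization gave 0.0237 for Srf and 0.0054 for Mef2a with both ligands, 0.0331 for Srf and 0.0048 for Mef2d with Shh, and 0.0189 for Srf between the ligands. The mean of probe sets gave 0.0661 for Mef2a, -0.0129 for Mef2c and -0.0245 for Mef2d with both ligands, 0.0715 for Mef2a with Shh, -0.0679 for Srf and -0.0314 for Mef2d with Ihh, and 0.0255 for Srf, 0.0108 for Mef2a, 0.0138 for Mef2d and 0.0122 for Klf5 between the ligands. Leaving out less specific probe sets gave -0.125 for Mef2c and 0.11 for Klf5 with both ligands, 0.122 for Klf5 with Shh, -0.148 for Srf and 0.0983 for Klf5 with Ihh, and 0.0804 for Srf and 0.0235 for Klf5 between the ligands. Array weights gave 0.0264 for Srf and 0.146 for Klf4 with both ligands, and 0.0374 for Gata6 and 0.0485 for Klf4 with Ihh. Leaving out arrays gave, with both ligands, -0.0395 to 0.0328 for Srf, -0.0132 to 0.121 for Mef2c, -0.0098 to 0.0493 for Mef2d, -0.177 to 0.152 for Klf4, -0.201 to 0.0296 for Klf5 and -9e-04 to 0.178 for Tagln. It gave with Shh -0.0912 to 0.028 for Srf, -0.286 to 0.353 for Klf4 and -0.333 to 0.0361 for Klf5, and with Ihh -0.0208 to 0.0702 for Srf, -0.317 to 0.158 for Gata6, -0.0326 to 0.0563 for Mef2a, -0.225 to 0.107 for Klf4 and -0.257 to 0.11 for Klf5. Between the ligands it gave -0.104 to 0.0157 for Srf, -0.218 to 0.421 for Klf4 and -0.278 to 0.112 for Klf5. Named list genes, list counts and the block for all named calls were added to the alternatives after the data were seen. The causes of these changes were not tested.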
